A study of Rattus norvegicus with 6 samples.

Results

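Transcripts of macrophages and other leukocytes were followed in whole neonatal rat ovaries cultured with or without NT3, the neurotrophin encoded by Ntf3. Of 36 genes chosen by name, 33 were found by their only symbol in the array annotation, among 14217 genes found that way, while Spi1, Vsig4 and Msr1 were not found there by name. Each gene was read from the probe set with the highest mean log2 signal over the 6 arrays. A signal is a relative brightness on a linear scale, so it is compared between arrays for a gene, not between genes as an amount. Brightness served to choose and filter probe sets and to pick genes to name. Summed signals of a list are compared between arrays and weigh its brightest genes most. Of the 33 genes, 27 had a mean log2 signal above the 40th percentile of all probe sets, a signal of 41.3, and were tested. Cd37, Cd4, Ncf1, C3ar1, Cd163 and Cx3cr1 lay below it and were not tested.

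Ovaries were taken from female Sprague-Dawley pups aged 4 days and kept as whole organs on floating filters for 48 h. The NT3 group received 50 ng/ml of recombinant human NT3 and the control group no added factor. Both groups shared the same medium with albumin, Albumax, ascorbic acid, transferrin and antibiotics. There were 3 NT3 and 3 control arrays, each with RNA of 2 to 3 ovaries homogenised together, and this number limits the precision of every value. The labels call the replicates biological but name no animal or litter behind them, so the p-values cover just the spread among these 6 samples. The comparison asks which transcripts differ with NT3, in a series whose title concerns the passage of primordial follicles to the primary stage.

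Macrophages are resident phagocytes of the ovary, where they clear dying cells and remodel tissue. They depend on the receptor Csf1r and the transcription factor PU.1, which is the product of Spi1. Their surface receptors signal through the adaptors encoded by Tyrobp and Fcer1g to the kinase Syk, and their secreted C1q tags debris for uptake. Genes such as Ptprc, Coro1a and Rac2 are shared by most leukocytes, so the list does not separate macrophages from other blood-derived cells.

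One library, control replicate 2, differed from the others in RNA quality. Its 3′ to 5′ signal ratio was 6.83 for beta-actin and 1.70 for Gapdh, against 2.42 to 2.91 and 1.09 to 1.25 on the other 5 arrays. Values without that array are therefore given beside many of the results that it moved. In whole organs, fewer cells of a type and less RNA per cell cannot be told apart.

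Most measured markers of other blood lineages, but not all, were below the signal filter, while 10600 of all 14217 genes were above it. All 4 measured platelet genes were below it, as were 9 of 13 T and NK cell genes, 3 of 4 B cell genes, 5 of 7 mast cell genes and 3 of 4 granulocyte genes, but 1 of 3 erythroid genes. The T and NK cell genes Cd3d, Cd3g, Lck and Zap70, the mast cell genes Cpa3 and Cma1 and the granulocyte gene S100a9 were above it. Cd3g had signals of 235.6, 311.7 and 306.6 in NT3, against 267.4, 352.3 and 284.2 in control. The beta-globin gene Hbb had signals of 2685.4, 2083.0 and 1905.3 in NT3, against 2745.9, 2526.8 and 2531.8 in control, and a log2 difference of -0.24 ± 0.13. Blnk, an adaptor gene of B cells and the only B cell gene above the filter, had 290.2, 353.0 and 308.8 in NT3, against 206.1, 318.8 and 281.2 in control. The log2 difference of Blnk was 0.26 ± 0.18, and 0.39 without control replicate 2. The B cell genes Cd79b and Ms4a1, both below the filter, had signals of 1.7 to 2.2 and 7.8 to 11.7 in NT3 and of 3.2 to 4.5 and 10.4 to 28.8 in control. The summed signal of the T and NK cell list was 602.6 to 705.6 in NT3 and 676.7 to 788.3 in control, and that of the mast cell list 155.8 to 419.2 in NT3 and 208.7 to 408.2 in control.

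No gene of the list passed the test between NT3 and control. By limma, 0 of the 27 tested members had an adjusted p under 0.05, beside 0.00% of 18625 probe sets, and the lowest adjusted p of a member was 1.00. At an unadjusted p under 0.05 the count was again 0 of 27, beside 1.29% of all probe sets, and the lowest unadjusted p, that of Ctss, was 0.0961. Where no gene differs, a limit of 0.05 should pass a share of 0.05, so the test was strict on these arrays. The cause was not tested, and the counts of 0 are weak evidence of equal expression. Over all 33 genes the mean log2 signal was higher in NT3 for 21 and lower for 12, where 46.8% of all genes were higher in NT3. The median log2 difference was 0.069, against -0.013 over all genes. Without control replicate 2 it was 0.039, with 18 genes higher and 15 lower, where 51.1% of all genes were higher and their median was 0.0049. The standard deviation of the list's array medians within groups was 0.069, about equal to the first of these medians and above the second.

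**Figure D1:**
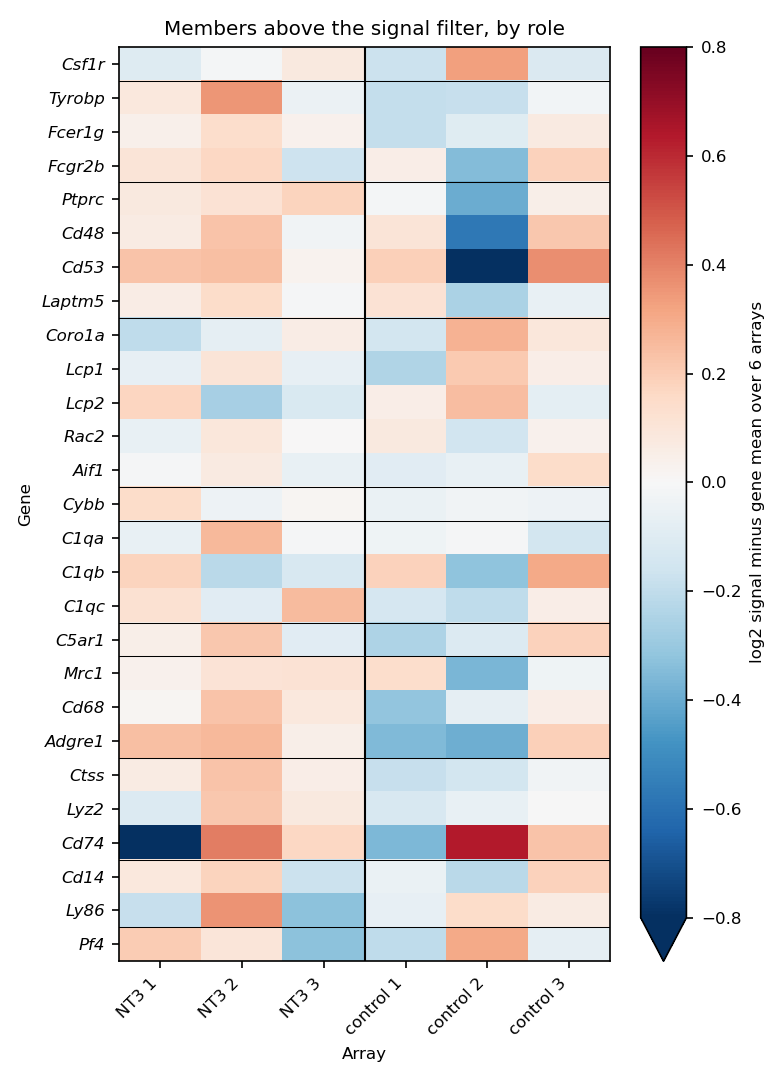
Log2 signal of the 27 members above the signal filter, as the difference from each gene's mean over the 6 arrays (colour), with genes in rows grouped by role and arrays in columns, NT3 left of control. The arrow on the colour bar marks values beyond the scale. The row of Cd74 is lowest in NT3 replicate 1, and the rows of Cd53 and Cd48 are lowest in control replicate 2.

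Ctss and Ptprc were the only 2 of the 33 genes whose NT3 arrays all lay above all control arrays, and none lay below. Such separation with NT3 higher occurred in 2.64% of all genes, and in 4.14% with NT3 lower. Ctss, which encodes the lysosomal protease cathepsin S, had signals of 249.2, 278.9 and 247.1 in NT3 replicates 1 to 3, against 209.6, 215.0 and 232.9 in control. Its log2 difference was 0.24 ± 0.13 (SE, n = 3 per group), a ratio of 1.18 with a 95% interval of 0.965 to 1.44 by limma, and it was 0.22 without control replicate 2. Ptprc, the gene of the pan-leukocyte phosphatase CD45, had 137.0, 140.6 and 147.0 in NT3, against 128.5, 98.6 and 134.3 in control. The gap between its groups was thus small for replicate 3 of control, and its log2 difference of 0.24 ± 0.17 was 0.11 without control replicate 2, the lowest of the 6 arrays. The second probe set of Ptprc had a log2 difference of 0.05.

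The promoters of these genes are shown with that of Cd53, whose array pattern is described below, because PU.1 is known to bind promoters of myeloid genes. Each is a window of 300 bases around the gene start, most of it upstream, from RefSeq on the GRCr8 assembly. Capitals mark the letters AGGAAGT, the core of the PU.1 element, read on either strand (ACTTCCT on the opposite strand).
Ctss (chr2:185775146-185775445, + strand): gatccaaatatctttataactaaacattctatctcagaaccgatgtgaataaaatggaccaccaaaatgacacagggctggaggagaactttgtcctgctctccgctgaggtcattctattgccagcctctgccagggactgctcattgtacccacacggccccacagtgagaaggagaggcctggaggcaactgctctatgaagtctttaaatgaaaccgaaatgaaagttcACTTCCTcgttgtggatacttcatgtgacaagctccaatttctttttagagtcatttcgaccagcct
Ptprc (chr13:52259697-52259996, - strand): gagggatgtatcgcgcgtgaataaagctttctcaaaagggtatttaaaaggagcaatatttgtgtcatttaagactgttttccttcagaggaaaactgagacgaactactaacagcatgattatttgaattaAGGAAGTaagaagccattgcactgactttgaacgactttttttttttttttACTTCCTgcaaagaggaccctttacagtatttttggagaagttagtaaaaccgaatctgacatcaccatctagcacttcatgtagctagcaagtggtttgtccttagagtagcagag
Cd53 (chr2:197087847-197088146, - strand): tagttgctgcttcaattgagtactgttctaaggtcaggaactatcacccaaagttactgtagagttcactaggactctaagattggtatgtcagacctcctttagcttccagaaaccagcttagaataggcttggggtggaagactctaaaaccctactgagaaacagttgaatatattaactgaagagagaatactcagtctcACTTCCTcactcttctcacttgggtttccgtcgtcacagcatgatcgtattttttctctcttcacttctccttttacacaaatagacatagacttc
A promoter was found for 22 of the 36 genes, and 9 of these held AGGAAGT on either strand, against 8.41% of 33469 promoters. They were C1qb, Cd37, Cd48, Cd53, Ctss, Cx3cr1, Lyz2, Mrc1 and Ptprc. The longer form GAGGAAGT, which contains the shorter one, stood in 3 of the 22, against 2.42% of all promoters. Other factors of the ETS family bind the same letters, and a match is not a measured site.

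Among the activating adaptors, Tyrobp had 266.4, 320.9 and 243.2 in NT3, against 219.6, 220.3 and 247.1 in control. Tyrobp encodes DAP12, which carries the signals of receptors such as Trem2, and its NT3 arrays 1 and 2 lay above all controls while array 3 did not. The log2 difference was 0.27 ± 0.15, with 0.24 without control replicate 2 and an unadjusted limma p of 0.0999. Fcer1g, the Fc receptor gamma chain, had 539.1, 579.2 and 537.0 in NT3, against 459.5, 491.5 and 550.3 in control, with a log2 difference of 0.14 ± 0.11. The inhibitory Fc receptor gene Fcgr2b had 136.7, 142.8 and 113.2 in NT3 and 132.0, 100.1 and 144.8 in control, and its log2 difference of 0.069 was -0.086 without control replicate 2. Of 14 other genes on this pathway, which encode receptors, kinases and further signalling proteins, 10 had higher and 4 lower means in NT3. Of the 7 tested, 5 were higher and 2 lower, and 0 passed limma. The counts over all 14 without control replicate 2 were again 10 and 4. The brightest of these, the activating Fc receptor gene Fcgr1a, had 142.4, 178.5 and 131.2 in NT3, against 131.9, 149.4 and 156.3 in control, with a log2 difference of 0.038 ± 0.17. Fcgr3a, another activating Fc receptor gene, had 136.8, 150.9 and 89.3 in NT3, against 121.1, 137.7 and 139.7 in control, with a log2 difference of -0.11 ± 0.22.

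Of the scavenger and tissue macrophage receptor genes of the list, the tested Adgre1, Cd68 and Mrc1 had higher mean signals in NT3, with no call. Cx3cr1 and Cd163 of the same role lay below the filter, with log2 differences of -0.33 and 0.062. Adgre1, which encodes the macrophage antigen F4/80, had 144.2, 146.5 and 126.3 in NT3, against 95.8, 93.0 and 139.7 in control. Its log2 difference of 0.37 ± 0.20 was the largest of the 27 tested members, at an unadjusted limma p of 0.0973, and control replicate 3 lay within the range of NT3. It was 0.26 without control replicate 2, the lowest array for this gene. Without control replicate 3, the control within the NT3 range, it was 0.56, the highest value when single arrays were left out. That fit kept control replicate 2 among its controls. Its unadjusted limma p was 0.0172, beside 2.26% of probe sets under 0.05 in that fit, and its adjusted p was 0.989. Leaving out the highest control of a gene can only raise its difference, so this p-value is not separate evidence. Cd68, a lysosomal glycoprotein gene, had 157.2, 182.4 and 164.9 in NT3, against 124.9, 148.2 and 161.5 in control. Its log2 difference was 0.22 ± 0.16, and 0.24 without control replicate 2. Mrc1, the mannose receptor gene, had 258.0, 272.2 and 273.6 in NT3, against 278.2, 196.1 and 246.1 in control, and its difference of 0.17 ± 0.15 was 0.034 without control replicate 2.

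Csf1r, the receptor that maintains macrophages, had 142.9, 151.9 and 161.7 in NT3, against 136.3, 192.1 and 141.4 in control. Its log2 difference of -0.026 ± 0.17 was 0.13 without control replicate 2, which held the highest signal of the gene. The ligand gene Csf1 had 365.8, 340.4 and 243.2 in NT3, against 287.5, 342.3 and 270.3 in control. Growth factor and lineage regulators outside the list had 7 of 9 genes tested, 1 of these 7 with a higher mean in NT3 and 6 with a lower mean, and 0 passed limma. Without control replicate 2, 3 of the 7 were higher and 4 lower, and the median log2 difference of all 9 was 0.012, against -0.063 with that array.

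**Figure D2:**
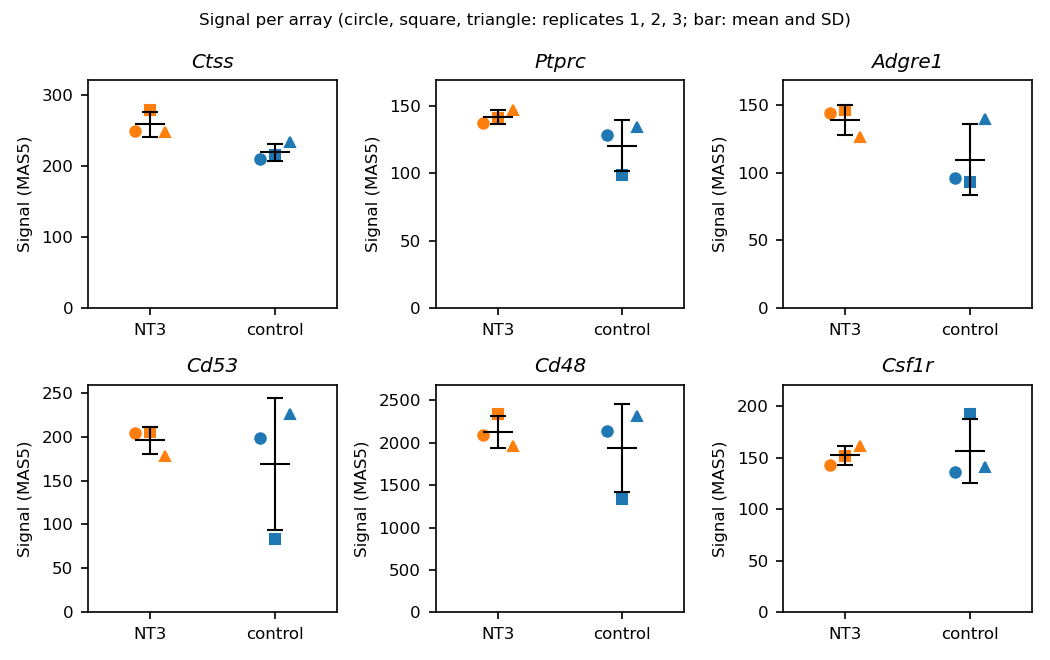
Signal per array (vertical axes, linear and starting at 0) of Ctss, Ptprc, Adgre1, Cd53, Cd48 and Csf1r in NT3 and control. Symbols give the replicate number and black bars the mean and SD of 3 arrays. The groups do not overlap for Ctss and Ptprc, and the control square, replicate 2, is lowest for Cd53 and Cd48 and highest for Csf1r.

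The chains of C1q, which initiates the classical complement pathway, did not share one direction. C1qa had 225.7, 281.2 and 233.6 in NT3, against 229.1, 233.8 and 212.5 in control, and C1qc had 199.5, 172.2 and 217.9 in NT3, against 167.2, 159.0 and 189.7 in control. C1qb had 258.3, 196.8 and 208.6 in NT3, against 259.9, 182.8 and 282.1 in control. The log2 differences were 0.13 ± 0.14 for C1qa, 0.19 ± 0.15 for C1qc and -0.11 ± 0.19 for C1qb, and the last was -0.30 without control replicate 2. The difference of C1qc was 0.14 without that array, the lowest for this gene. The complement receptor gene C5ar1 had 157.9, 177.1 and 143.0 in NT3, against 128.6, 141.4 and 173.6 in control. Other complement genes, such as C3 and Serping1, had a median log2 difference of 0.025 over 6 genes, and 0.12 without control replicate 2. All 6 were tested, and 0 passed limma.

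Lysosomal and bactericidal genes showed small differences. Lyz2, the macrophage lysozyme gene, had 1380.6, 1726.7 and 1572.5 in NT3, against 1358.7, 1428.7 and 1485.5 in control. Its log2 difference was 0.13 ± 0.11, a ratio of 1.09 with a 95% interval of 0.920 to 1.29, and 0.13 without control replicate 2. A list of 14 lysosomal enzymes and membrane proteins, which most cells express, had 7 genes higher and 7 lower in NT3 with a median of 0.0061, and 0 passed limma. Leaving out control replicate 2 gave 11 higher and 3 lower, with a median of 0.075. The oxidase subunit gene Cybb had 149.2, 131.0 and 136.6 in NT3, against 129.9, 132.4 and 131.4 in control, and Cyba, its partner subunit, had a log2 difference of 0.13 ± 0.12, and 0.078 without control replicate 2. The endotoxin coreceptor gene Cd14 had 951.9, 1018.1 and 798.2 in NT3, against 867.3, 773.0 and 1021.0 in control. Its log2 difference was 0.059 ± 0.14, and -0.036 without control replicate 2. Ly86, grouped with Cd14 in the list, had 128.4, 187.4 and 116.6 in NT3, against 139.8, 161.8 and 153.0 in control.

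In control replicate 2 the membrane genes Cd53, Cd48 and Laptm5 had their lowest signals, while Coro1a, Lcp1 and Lcp2 had their highest. Cd53, a leukocyte tetraspanin gene, had 203.9, 205.4 and 177.7 in NT3, against 198.2, 83.5 and 225.4 in control. Cd48, whose product binds the receptor CD244, had 2087.2, 2334.2 and 1954.2 in NT3, against 2142.5, 1340.8 and 2316.4 in control. For both genes control replicate 1 lay within the range of NT3. Control replicate 3 lay within it for Cd48 and above it for Cd53, and the low value of control replicate 2 set the sign of both differences. The log2 difference of Cd53 was 0.33 ± 0.33, but -0.11 without that array, and that of Cd48 was 0.17 ± 0.19, but -0.072 without it. Laptm5, a lysosomal membrane gene of blood cells, had 142.8, 151.7 and 135.8 in NT3, against 148.4, 114.6 and 131.1 in control. Its log2 difference was 0.13 ± 0.16, and 0.039 without control replicate 2.

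The actin-binding coronin gene Coro1a had 242.4, 265.7 and 291.2 in NT3, against 251.9, 338.8 and 297.2 in control. Lcp1, the plastin gene of leukocytes, had 407.4, 458.7 and 407.5 in NT3, against 361.3, 492.6 and 442.7 in control. Lcp2, which encodes the adaptor SLP-76, had 77.2, 57.0 and 62.9 in NT3, against 71.1, 81.5 and 64.9 in control. Their log2 differences were -0.15 ± 0.15 for Coro1a, -0.016 ± 0.14 for Lcp1 and -0.15 ± 0.21 for Lcp2. They were -0.042 for Coro1a, 0.084 for Lcp1 and -0.060 for Lcp2 without control replicate 2. Rac2, a GTPase of blood cells, and Aif1, which encodes the macrophage protein IBA1, had log2 differences of 0.025 ± 0.12 and 0.0034 ± 0.13, and of -0.046 and -0.026 without control replicate 2. The probe set of Aif1 has a suffix that marks it as shared between transcripts. The second probe set of Aif1 had a log2 difference of -0.93.

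Over all 33 genes, control replicate 2 lay below the other 5 arrays for 12 and above them for 7, where 20.4% of all genes lay below and 34.4% above. The 12 were Fcgr2b, Ptprc, Cd48, Cd53, Laptm5, Rac2, Ncf1, C1qb, C1qc, Mrc1, Adgre1 and Cd14, and the 7 were Csf1r, Coro1a, Lcp1, Lcp2, Cd163, Cd74 and Pf4. Leaving out that array turned the sign of the difference for 11 of the 33. Its beta-actin 3′ to 5′ ratio was 6.83, and the part of RNA quality in these shifts was not tested.

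**Figure D3:**
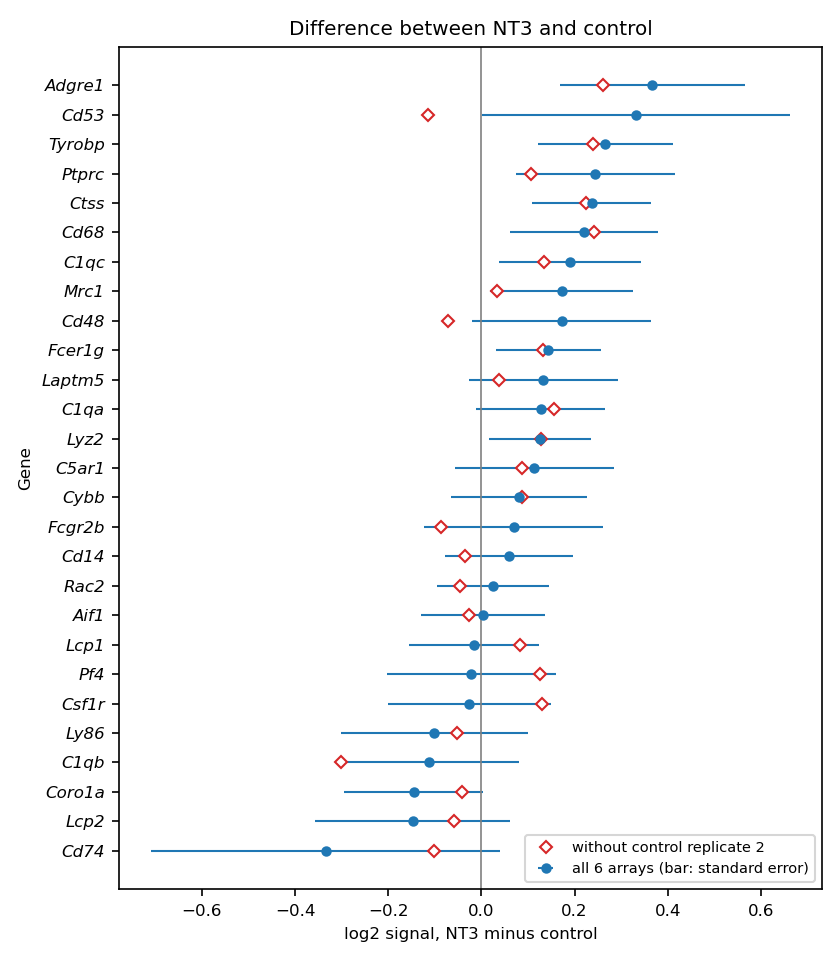
Log2 signal in NT3 minus control (horizontal axis) of the 27 tested members, with all 6 arrays (blue points, bars are standard errors) and without control replicate 2 (red diamonds). Cd53 and Cd48 lie at 0.33 and 0.17 with all arrays and at -0.11 and -0.072 without that control.

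The highest and lowest signals of the 33 genes were not spread evenly over the arrays. NT3 replicate 2 held the highest signal of 14 of the 33 genes, or 42.4%, where it was highest for 13.3% of all genes. Control replicate 1 held the lowest signal of 10, or 30.3%, where the share of all genes was 16.5%, and control replicate 2 that of 12, or 36.4%, against 20.4%. The median deviation of the list from the mean of the 6 arrays was 0.049, 0.15 and 0.018 in NT3 replicates 1 to 3 and -0.063, -0.069 and 0.055 in control replicates 1 to 3. The ranges of the groups overlapped, since control replicate 3 lay above NT3 replicates 1 and 3. Without control replicate 2, NT3 replicate 2 stayed above the mean for 25 of 33 genes, where 53.1% of all genes did.

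Between arrays of equal number, the list was higher in NT3 for 18 of 33 genes with a median log2 difference of 0.041 in pair 1. In pair 2 it was higher for 22 with a median of 0.25, and in pair 3 for 13 with a median of -0.035. Over all genes the shares higher in NT3 were 51.2%, 42.5% and 50.4%. Of the 27 tested members, 5 were higher in NT3 in all 3 pairs, where 9.69% of all genes above the filter were, and 2 were lower in all 3 pairs, where 11.6% were. The 5 were Ptprc, C1qc, Cd68, Ctss and Lyz2, and the 2 were Coro1a and Cd74. The difference of the list stood mostly in pair 2, which holds both the array with the highest list median and the array with the lowest. In NT3 replicate 2 the summed signal of 5 oocyte genes, among them Gdf9 and Zp3, was 9023.0, against 10708.9 to 11713.2 on the other arrays. The summed signal of 5 granulosa genes, among them Amh and Inha, was 1533.2 there and 1650.2 in control replicate 2, against 2291.3 to 2759.7 on the other 4 arrays. Of the other tissue lists, 6 of 6 stromal fibroblast genes had higher means in NT3 and 6 of 6 endothelial genes lower means, with 0 calls by limma. Without control replicate 2, 5 of the 6 stromal genes were higher, and all 6 endothelial genes were lower. The part of these cell types in the values of the leukocyte genes was not tested.

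**Figure D4:**
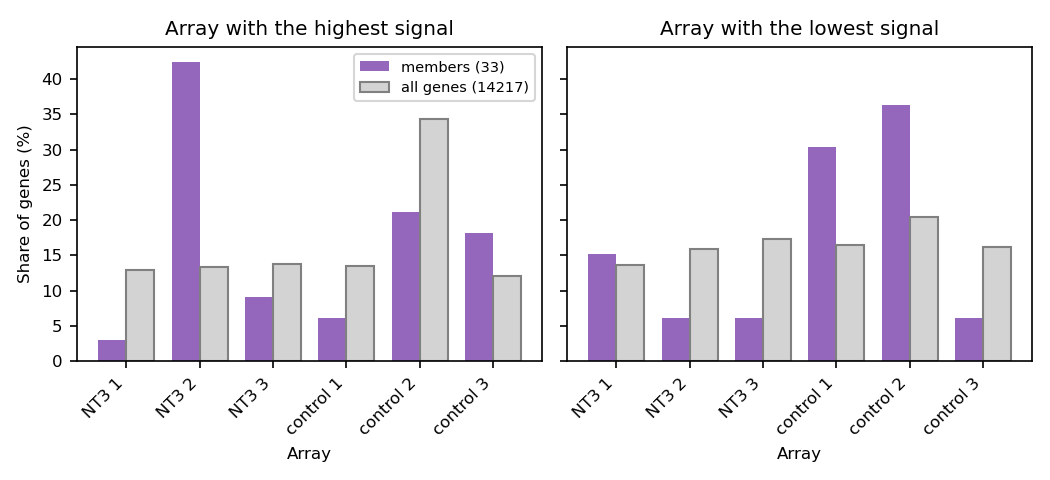
Share of genes (vertical axis, percent) whose highest (left panel) or lowest (right panel) signal lay in each array (horizontal axis), for the 33 macrophage and leukocyte genes (purple) and all 14217 genes (grey). NT3 replicate 2 was highest for 42.4% of the 33 genes and 13.3% of all genes.

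Cd74 had the largest standard error of the 27 tested members and was lowest in the same array as the genes of MHC class II. Cd74 encodes the invariant chain, which guides MHC class II molecules to the endosome and is made by macrophages, dendritic cells and B cells. It had 392.2, 1096.5 and 926.0 in NT3, against 642.6, 1282.2 and 968.7 in control. Each NT3 array lay below the control array of its number, but the groups overlapped, and the log2 difference was -0.33 ± 0.37. In the fit with the replicate block the standard error was 0.13. The unadjusted limma p was then 0.0380, beside 2.15% of probe sets under 0.05 in that fit, and the adjusted p was 1.00. That pairing was taken from these same data and not from the labels, so this p-value is not separate evidence. The log2 difference was -0.10 without control replicate 2 and 0.12 without NT3 replicate 1.

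All 7 genes of the class II list, Ciita included, were lower on average in NT3, and all 7 had their lowest signal in NT3 replicate 1, as Cd74 did, where 13.6% of all genes were lowest in that array. Without control replicate 2, 6 of the 7 were lower. RT1-Da, an alpha chain gene, had 230.0, 780.2 and 617.6 in NT3, against 457.7, 738.9 and 655.0 in control. Its log2 difference was -0.33 ± 0.40, and -0.19 without control replicate 2. RT1-Ba, another alpha chain gene, had 75.7, 223.0 and 434.3 in NT3, against 144.6, 282.5 and 491.6 in control. Control replicate 1 was the second lowest array for 6 of the 8 genes, Cd74 included. Ciita, the coactivator gene that controls class II transcription, lay below the filter at 18.0, 32.0 and 22.6 in NT3, against 29.0, 43.5 and 26.7 in control. None of the 6 tested class II genes passed limma, and RT1-Ba had a log2 difference of -0.48 ± 0.61. With the replicate number as a block, a pairing taken from these same data, it was ± 0.17, at an unadjusted limma p of 0.0221 and an adjusted p of 1.00. The other probe sets of RT1-Ba had log2 differences of -0.07, -0.14 and -0.54. Without NT3 replicate 1, 6 of the 8 genes were higher in NT3.

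**Figure D5:**
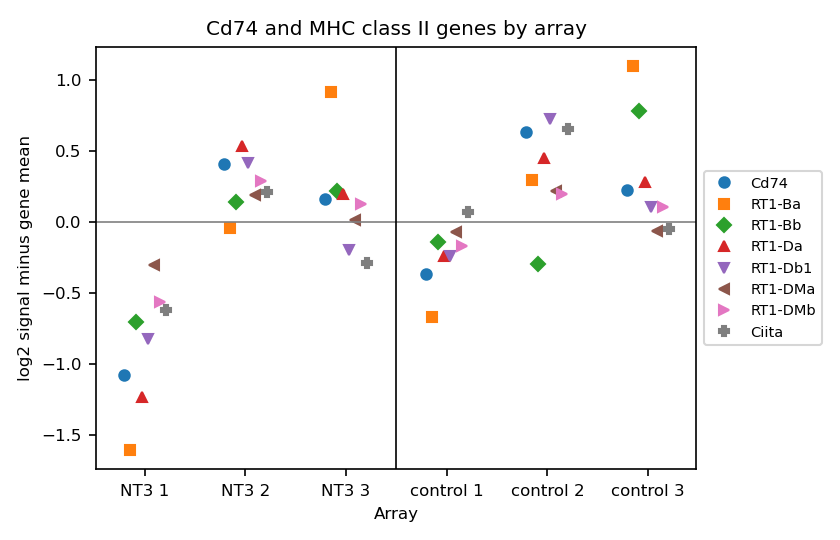
Log2 signal of Cd74 and 7 MHC class II genes in each array, as the difference from each gene's mean over the 6 arrays (vertical axis), with NT3 arrays left of control arrays. All 8 genes are lowest in NT3 replicate 1.

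Promoters of Cd74 and of RT1-Da are shown because class II promoters share X and Y boxes, which bind the RFX and NF-Y complexes that recruit the product of Ciita. Capitals mark TAGCAAC, letters of the X box, and CTGATTGG, letters of the Y box, searched on both strands.
Cd74 (chr18:56526956-56527255, + strand): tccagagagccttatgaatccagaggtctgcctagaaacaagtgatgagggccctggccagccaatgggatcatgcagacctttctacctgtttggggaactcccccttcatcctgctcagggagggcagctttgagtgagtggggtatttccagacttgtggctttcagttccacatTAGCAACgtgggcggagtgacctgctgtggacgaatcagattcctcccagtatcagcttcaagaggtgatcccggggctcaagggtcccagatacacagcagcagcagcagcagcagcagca
RT1-Da (chr20:4515165-4515464, + strand): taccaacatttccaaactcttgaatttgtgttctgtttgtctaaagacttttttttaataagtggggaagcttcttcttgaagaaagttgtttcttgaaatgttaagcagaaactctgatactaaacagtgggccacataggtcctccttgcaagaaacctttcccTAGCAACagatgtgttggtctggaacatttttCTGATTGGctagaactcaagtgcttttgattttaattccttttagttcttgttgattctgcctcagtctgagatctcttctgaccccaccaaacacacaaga
Of the 6 promoters found for these 8 genes, 3 held TAGCAAC, those of Cd74, RT1-Da and RT1-Db1, against 3.58% of all promoters. CTGATTGG stood in 4, those of RT1-Ba, RT1-Bb, RT1-Da and RT1-Db1, against 3.50%, and not in the window of Cd74.

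Pf4, a chemokine gene of platelets that macrophages also express in mouse, had 417.9, 388.4 and 290.0 in NT3, against 316.5, 449.0 and 346.4 in control. Its log2 difference was -0.022 ± 0.18 and 0.12 without control replicate 2. The platelet genes Itga2b, Gp9, Gp5 and Ppbp were all below the filter, with a summed signal of 45.9 to 55.3 in NT3 and 56.2 to 102.3 in control.

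Markers of tissue-resident macrophages outside the list had higher means in NT3 for 7 of 7 genes, where 46.8% of all genes were higher. The stromal fibroblast list also had 6 of 6 higher. Of the 7 macrophage markers, 6 were tested and 0 passed limma. Their median log2 difference was 0.17, and 0.093 without control replicate 2. All 7 were higher without that array too. The second probe sets of F13a1 and Lyve1 had log2 differences of -0.22 and 0.03 with all arrays. Further probe sets of Gas6 had 0.14 and -0.03. Selenop, a selenoprotein gene that other cells also express, had 3498.7, 3524.6 and 3508.9 in NT3, against 3201.3, 2677.5 and 3447.6 in control, with no overlap. Its log2 difference was 0.18 ± 0.11, and 0.080 without control replicate 2, and its second probe set had a log2 difference of -0.74. Lyve1, of resident macrophages and lymphatic vessels, had 187.6, 156.5 and 130.6 in NT3, against 156.7, 120.0 and 143.7 in control, with a log2 difference of 0.17 ± 0.19, and 0.061 without control replicate 2.

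Genes of inflammatory activation had 6 of 9 genes tested, 4 with a higher and 2 with a lower mean in NT3, and 0 passed limma. Leaving out control replicate 2 gave 3 higher and 3 lower. The monocyte-attracting chemokine gene Ccl2 had 2258.6, 1973.9 and 1271.8 in NT3, against 1657.8, 1642.5 and 1701.2 in control, so that its NT3 arrays spanned a wider range than its controls. The cytokine gene Il1b had 121.3, 97.9 and 119.9 in NT3, against 98.8, 118.7 and 128.4 in control, with a log2 difference of -0.027 ± 0.18, and -0.0017 without control replicate 2.

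The 6 members below the filter overlapped between the groups. Cx3cr1, the fractalkine receptor gene, had 20.1, 26.8 and 39.4 in NT3, against 25.0, 37.6 and 44.9 in control. Cd4, which rat macrophages carry as well as T cells, had 21.9, 5.9 and 29.7 in NT3, against 32.4, 26.2 and 17.6 in control. The tetraspanin gene Cd37 ranged from 5.1 to 26.2 in NT3 and from 17.0 to 22.0 in control, and the oxidase gene Ncf1 from 9.0 to 24.3 in NT3 and from 3.8 to 20.9 in control. The hemoglobin scavenger receptor gene Cd163 ranged from 9.2 to 14.2 in NT3 and from 2.9 to 26.9 in control. C3ar1, an anaphylatoxin receptor gene, ranged from 14.7 to 39.5 in NT3 and from 21.9 to 26.8 in control.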

How the data were processed

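Affymetrix arrays were read as deposited: a linear intensity per probe set in each array, computed with MAS5 per the submitters' processing notes, for which these notes name no version. Trimmed means (2% off either end) came to 210.1 throughout, a common scaling, with array medians of 69.0 to 75.0. Of 31099 probe sets, 57 controls were removed. Signals were taken to log2 with a floor of 0.1, used by 5 probe sets listed at 0, and the 18625 at or above the 40th percentile of mean log2 signal (5.37) were tested.

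Titles gave group and replicate. The groups were compared with limma 3.58.1 (R 4.3.3), 2-sided, with an intensity trend and Benjamini-Hochberg adjustment over all tested probe sets at 0.05, checked on simulated data. The annotation gave 20826 probe sets 1 symbol, 436 several and 9780 none. The members, lists and tests were chosen with earlier results of these data known. Every member could be named; other genes were the up to 4 brightest of a list, any with an unadjusted p under 0.05 and those stated absent. RT1-Bb, RT1-Db1 and Ciita were named after their values were seen. Deviations from the group means of arrays 1, of arrays 2 and of arrays 3 correlated at 0.230, 0.247 and 0.222. On the data alone, the numbers were therefore taken as pairs, in the differences between arrays of equal number and in the replicate block. The main fit had no block, so its standard errors and p-values leave this pairing out. The check on simulated data is not taken to cover this pairing or the differing quality of control replicate 2. Before adjustment, 1.29% of the p-values of the main fit lay under 0.05, fewer than that limit allows for with no differences. The alternatives changed the block, scaling, filter, offset, trend, array weights, probe set choice and arrays.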

Additional observations from a re-analysis of the deposited data

How the results depend on the processing

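No member passed limma's adjusted test in any of the 17 alternatives, with 0 called in each, and all signs below belong to differences that did not pass. Over all probe sets the count was 0 too, except 4 with the replicate block and without control replicate 2. The block changed no other call. The median log2 difference of the 33 genes ranged from 0.030 to 0.12, and the number higher in NT3 from 18 to 26, when single arrays were left out. At an unadjusted p under 0.05 there were 240 probe sets, and 401 with the block, 752 with no filter, 123 with a filter at the 60th percentile, 377 without the variance trend, 585 with array weights, 656 without control replicate 2, 420 without control replicate 3, 514 without both arrays numbered 2 and 962 with the block and without control replicate 2.

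Of the 27 tested members, 13 kept the sign of their difference throughout and 14 did not, and the cause was not tested. With single arrays left out, the log2 difference ranged from -0.12 to 0.13 for Csf1r, -0.086 to 0.18 for Fcgr2b, -0.072 to 0.32 for Cd48, -0.11 to 0.60 for Cd53, -0.14 to 0.084 for Lcp1, -0.046 to 0.071 for Rac2, -0.040 to 0.076 for Aif1, -0.30 to 0.011 for C1qb, -0.62 to 0.12 for Cd74, -0.036 to 0.16 for Cd14, -0.31 to 0.036 for Ly86 and -0.13 to 0.14 for Pf4. Without both arrays numbered 2, and equally with the block and without control replicate 2, it turned to 0.13 for Csf1r, -0.15 for Fcgr2b, -0.14 for Cd48, -0.15 for Cd53, -0.0023 for Laptm5, 0.027 for Lcp1, 0.037 for Lcp2, -0.085 for Rac2, -0.062 for Aif1, -0.11 for Cd14 and 0.072 for Pf4. With array weights it turned to 0.074 for Csf1r, -0.024 for Fcgr2b, -0.0086 for Cd48, 0.059 for Lcp1, -0.041 for Rac2, -0.013 for Aif1 and 0.14 for Pf4, and with the mean of all probe sets to -0.47 for Aif1. Signals near the filter limit what can be said of the 6 members below it.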
